A study of Mus musculus with 8 samples.

Results

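H3K27me3 peaks were examined at 10 genes of bone morphogenetic protein (Bmp) signalling, of 34328 protein-coding and lncRNA genes on chromosomes 1 to 19 and X. The ligands were Bmp2, Bmp3, Bmp4, Bmp5, Bmp6, Bmp7 and Gdf6, and the antagonists were Nog, Grem1 and Chrd. They were listed by name and function, and for each one the percent covered by peaks was taken over the gene body and over windows within 2.5 kb of both annotated ends. The cells were female neural stem cell lines from E14.5 embryos of a C57BL/6, 129 and Castaneus mix. All lines were established with 1 deleted and 1 conditional (fl) allele of Smchd1, an Xist deltaA allele on the maternal X of 129 origin, and a paternal X of Castaneus origin. In the del/del group the conditional allele was removed with a Cre retrovirus (MSCV-Cre-puro), puromycin was given from 24 hours after transduction, and cells were harvested on day 7. The del/fl group consisted of untransduced cells of the same kind, so deletion of Smchd1 cannot be told apart from transduction and selection. Each group had 2 H3K27me3 libraries, made with a Millipore antibody, and each library was called against its own whole-cell extract. Whether the 2 libraries of a group go back to different embryos is not stated, so a p-value here covers only the spread between samples, which may be technical.

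Bmp ligands are secreted dimers of the TGF-beta superfamily that bind paired type I and type II receptor kinases, which phosphorylate the receptor Smads. Antagonists such as Noggin, Gremlin and Chordin bind the ligands outside the cell and keep them from the receptors. In neural stem cells Bmp signalling is known to promote quiescence and astrocyte fate, and Noggin is known to favour the production of neurons. H3K27me3 is placed by Polycomb repressive complex 2 and is typical of silent developmental genes, often at CG-rich promoters. Smchd1 encodes a chromatin protein of the inactive X chromosome and of some autosomal gene clusters.

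The RefSeq promoter table (GRCm38.p6, the same build as mm10) held 5 of the 10 genes. The 250 bases before each start given in that table are shown because 3 of these promoters lay wholly under peaks and 2 lay outside them. They are written 5′ to 3′ on the strand of the gene, with each CG in capitals. Bmp4 is on the minus strand (chr14:46390670-46390919), as is Grem1 (chr2:113758649-113758898). Bmp6 (chr13:38345466-38345715), Chrd (chr16:20732877-20733126) and Bmp5 (chr9:75775115-75775364) are on the plus strand. The Chrd start in the promoter table lies 1702 bp inside the gene record used for cover, while the other 4 starts are the ends of theirs.
Bmp4: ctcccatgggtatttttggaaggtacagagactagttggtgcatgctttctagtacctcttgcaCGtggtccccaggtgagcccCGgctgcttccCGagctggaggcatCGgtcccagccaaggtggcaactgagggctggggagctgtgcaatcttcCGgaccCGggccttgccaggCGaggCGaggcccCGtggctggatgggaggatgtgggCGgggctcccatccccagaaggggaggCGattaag
Bmp6: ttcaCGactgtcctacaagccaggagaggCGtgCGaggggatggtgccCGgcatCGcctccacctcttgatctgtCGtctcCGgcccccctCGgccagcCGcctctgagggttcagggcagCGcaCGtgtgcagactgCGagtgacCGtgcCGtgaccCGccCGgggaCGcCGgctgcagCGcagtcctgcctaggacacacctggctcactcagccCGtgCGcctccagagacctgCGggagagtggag
Grem1: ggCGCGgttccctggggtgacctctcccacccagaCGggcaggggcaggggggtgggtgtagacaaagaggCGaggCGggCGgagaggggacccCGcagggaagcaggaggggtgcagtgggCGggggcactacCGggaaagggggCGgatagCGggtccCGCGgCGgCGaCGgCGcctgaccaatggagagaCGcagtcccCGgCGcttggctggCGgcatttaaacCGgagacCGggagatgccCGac
Chrd: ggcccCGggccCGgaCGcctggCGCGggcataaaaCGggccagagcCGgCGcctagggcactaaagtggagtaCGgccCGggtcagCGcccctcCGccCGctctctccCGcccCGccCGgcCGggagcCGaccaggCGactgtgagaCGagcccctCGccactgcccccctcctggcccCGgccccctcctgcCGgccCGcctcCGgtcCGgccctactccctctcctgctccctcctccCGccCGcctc
Bmp5: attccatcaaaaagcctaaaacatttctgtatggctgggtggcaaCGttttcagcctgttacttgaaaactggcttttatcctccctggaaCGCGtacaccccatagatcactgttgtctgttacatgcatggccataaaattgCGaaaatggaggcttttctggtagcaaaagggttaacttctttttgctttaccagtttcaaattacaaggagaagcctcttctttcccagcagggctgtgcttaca
The promoters of Bmp4, Bmp6 and Grem1, from 250 bases before the start to 50 after it, were 100% covered in each of the 4 libraries, and those of Chrd and Bmp5 were 0% covered in each. The CG counts did not follow that split. The dinucleotide CG, which reads the same on both strands, occurred 12 times in the window of Bmp4, 27 times in that of Bmp6 and 28 times in that of Grem1. It occurred 34 times in that of Chrd and 4 times in that of Bmp5. Of 31396 autosomal promoter windows 94.8% held at least 1 CG, 40.1% held as many as Bmp4, 16% as many as Bmp6, 14.6% as many as Grem1, 7.98% as many as Chrd and 69.1% as many as Bmp5. A peak in all 4 libraries touched 4.92% of these windows. That share was 1.68% for windows with 0 to 4 CGs, rose to 9.68% at 10 to 14 and was 6.47% at 30 or more.

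**Figure D1:**
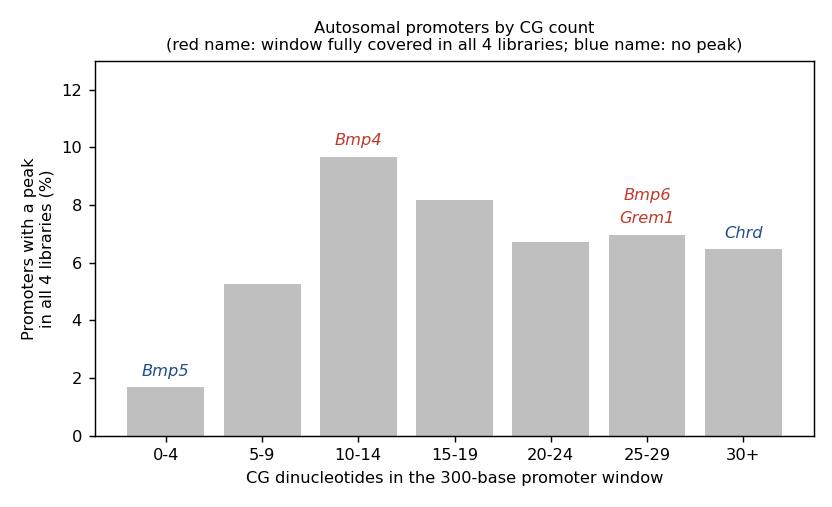
Share of autosomal promoter windows of 300 bases touched by an H3K27me3 peak in all 4 libraries (y axis, percent), by the number of CG dinucleotides in the window (x axis). Gene names mark the class each gene falls in, and their height carries no value: Bmp4 lies in the class with the highest share, 9.68%, and the bare Chrd promoter in the class of 30 or more CGs.

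Across the 4 libraries the genes showed 3 patterns. Bmp4 and Gdf6 lay almost wholly inside long domains. Bmp2, Bmp3, Bmp6, Grem1 and Nog each had a peak of a few kilobases at 1 end of the gene. Bmp5 and Bmp7 had no peak, and Chrd had only a short one inside the gene in 2 of the 4 libraries. At their ends 7 of the 10 genes had a peak in every library, against 12.4% of 20665 autosomal protein-coding genes, which is a description of a list chosen by name. In bulk cells, fewer cells with the mark and less of the mark per cell cannot be told apart, and the lists do not separate the parental alleles.

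**Figure D2:**
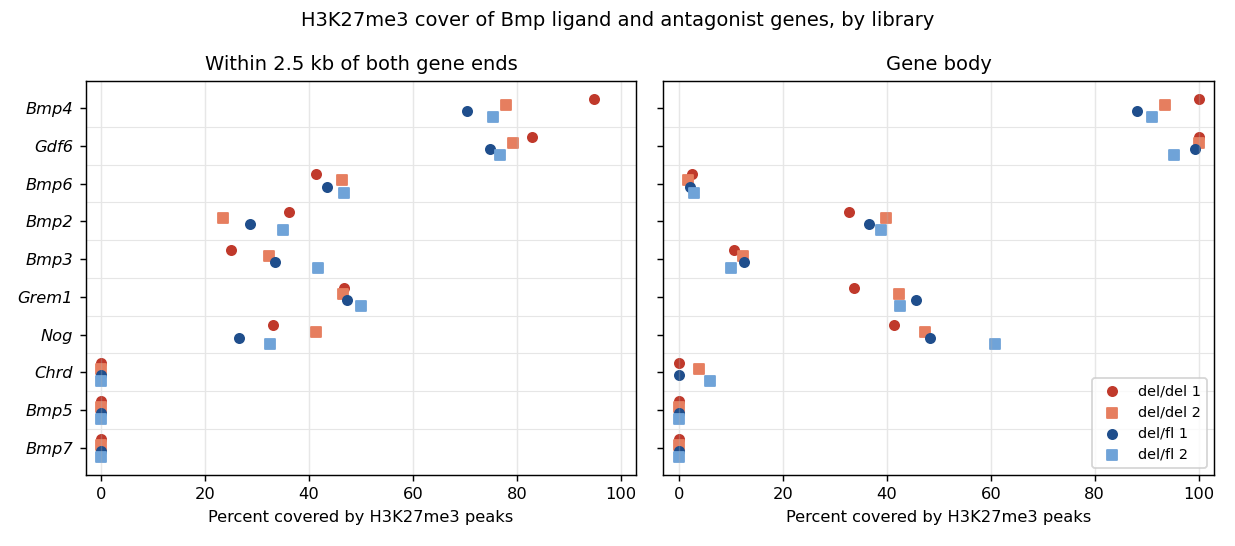
Percent of bases covered by H3K27me3 peaks (x axes) within 2.5 kb of both gene ends (left) and over the gene body (right), 1 point per library. Bmp4 and Gdf6 lie at 70.5% or more in both panels, Bmp5 and Bmp7 lie at 0%, and Chrd lies above 0% in the body panel only.

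Bmp4 (chr14:46383525-46390669) encodes a ligand that patterns dorsal tissue and drives neural stem cells towards the astrocyte fate. Its gene body was covered by 100% and 93.6% in the del/del libraries and by 88.1% and 91% in the del/fl libraries, and its ends by 94.8% and 77.9% against 70.5% and 75.4%. Both del/del values lay above both del/fl values in each window, by 7.26 points in the body (SE 3.2; limma, adjusted p = 0.657) and by 13.4 points at the ends (SE 7.68; limma, adjusted p = 0.624). Neither difference passed the test, and leaving out 1 library at a time gave 4.99 (without del/del 1) to 21.8 points (without del/del 2) at the ends. After gaps of up to 3 kb were joined, the differences were 1.89 points at the ends, from 100% and 100% against 96.2% and 100%, and 0 points over the body. Among autosomal protein-coding genes, 1.26% had as much mean cover at their ends. The domain ran well past the 5′ end of the gene, the upper coordinate. In the 10 kb beyond that end, cover was 94.8% and 91.4% (del/del) against 90.3% and 86.9% (del/fl). In the 10 kb beyond the 3′ end it was 24.8% and 10.7% against 7.64% and 16.9%. The domain thus reached further on the 5′ side in all 4 libraries.

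Upstream of the gene, the Bmp4 domain was listed as 1 long peak in del/del and in pieces in del/fl. The longest peak measured 18.6 kb and 15.8 kb (del/del) against 8.43 kb and 10.3 kb (del/fl). In del/fl a gap of 967 bp or 779 bp upstream of the gene parted it from a second peak of 7.13 kb or 4.88 kb. Counting only peaks that touch the gene or its 2.5-kb flanks, the summed length was 18.6 kb and 16.6 kb (del/del) against 9.2 kb and 11.8 kb (del/fl), a difference of 7.09 kb (exact permutation test, two-sided, p = 0.333, the smallest that 2 against 2 libraries allow). Once gaps of up to 3 kb were joined, the domain measured 20857 bp and 21104 bp (del/del) against 19502 bp and 20999 bp (del/fl). After joining, the second del/fl library lay between the del/del libraries and the first lay below both. The same peaks also overlapped the annotated genes Gm15217 and Gm15222.

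Gdf6 (chr4:9844372-9862345) encodes a ligand known for its part in joint, skull and eye development. Its body was covered by 100% in both del/del libraries and by 99.3% and 95.2% in del/fl (limma, adjusted p = 0.657). Its ends were covered by 82.9% and 79.3% (del/del) and by 74.9% and 76.7% (del/fl), a difference of 5.34 points (SE 1.94; limma, adjusted p = 0.608). Both del/del values were the higher ones in both windows, and neither difference passed the test. A single peak of 21.3 kb and 20.9 kb held the gene in del/del. In each del/fl library a peak of 19.4 kb was parted from a short one, by 844 bp at the lower end in the first and by 864 bp at the upper end in the second. Within 1 kb of the ends, cover was 100% and 100% against 78.9% and 78.4%. This difference of 21.3 points passed the test (limma, adjusted p = 0.0284), with no spread in del/del because both values were at the maximum. The uncovered del/fl bases were the gaps of 844 bp and 864 bp. These lay at opposite ends, so the small del/fl spread reflects gaps of like length and not the same site. With gaps of up to 3 kb joined, the 2.5-kb windows gave 82.9% and 79.3% against 83.3% and 85.3%, and the sign turned to -3.19 points. The joined domain measured 21265 bp and 20907 bp (del/del) against 21304 bp and 21507 bp (del/fl).

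**Figure D3:**
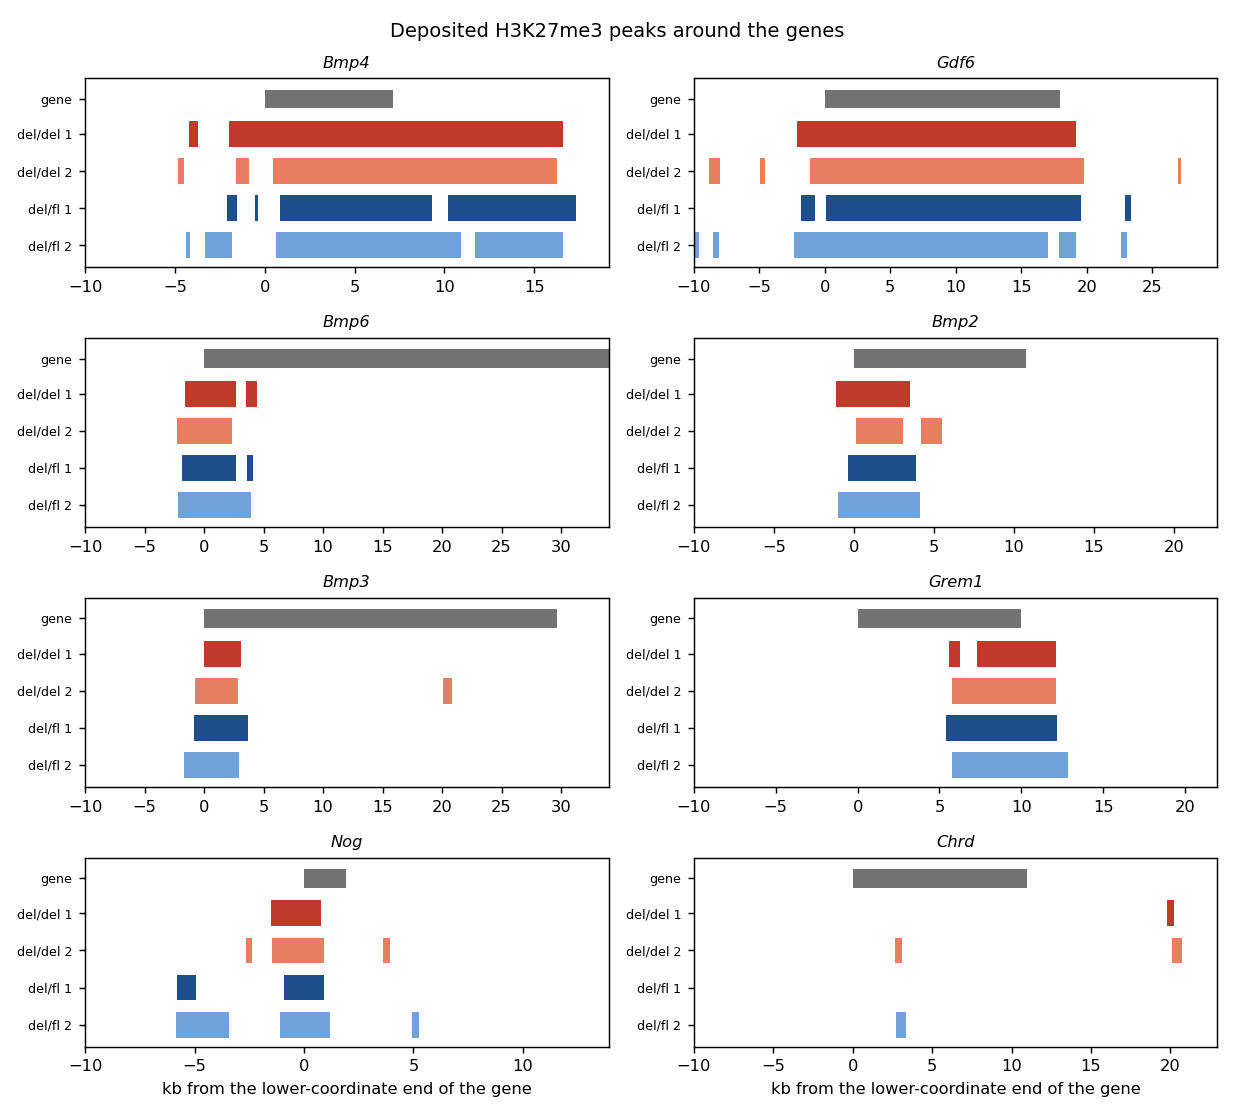
Deposited H3K27me3 peaks in each library (coloured bars) around 8 genes (grey bar), in kb from the lower-coordinate end of each gene; Bmp5 and Bmp7, which had no peak, are left out. The long Bmp4 and Gdf6 peaks of del/del are parted by short gaps in del/fl, upstream of the gene for Bmp4. At the lower end of Bmp4 del/del has gaps too, such as 1331 bp in the second library. The other genes have short peaks at 1 end or inside, and the Bmp6 gene runs past the edge of its panel.

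Of the ligands with a short peak, Bmp6 (chr13:38345716-38500314), known for inducing hepcidin in the liver, had the highest pileup. Its main peak covered the 5′ end and measured 4.3 kb and 4.64 kb (del/del) against 4.55 kb and 6.16 kb (del/fl). The rest of this gene of 155 kb was nearly bare, with a body cover of 2.46% and 1.74% (del/del) against 2.09% and 2.89% (del/fl). End cover was 41.4% and 46.4% against 43.4% and 46.8%, with overlapping libraries (difference -1.2 points, SE 2.79; limma, adjusted p = 0.881). Deep inside the gene, peaks of 223 bp, 323 bp and 488 bp appeared at unlike places in 1 library each.

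Bmp2 (chr2:133552159-133562896), a close relative of Bmp4 and a potent inducer of bone, had its peak at the lower-coordinate end. That peak measured 4.64 kb and 2.94 kb (del/del) against 4.27 kb and 5.17 kb (del/fl). End cover was 36.2% and 23.4% (del/del) against 28.6% and 35% (del/fl), so the libraries overlapped (difference -1.98 points, SE 6.33; limma, adjusted p = 0.932). In the second del/del library the peak began 159 bp inside the gene, and a second piece of 1.34 kb followed it. Bmp3 (chr5:98854415-98884053), a member of the family that opposes other Bmps in bone, also had its peak at the lower-coordinate end. It measured 3.14 kb and 3.61 kb (del/del) against 4.54 kb and 4.65 kb (del/fl). End cover was 25% and 32.3% (del/del) against 33.4% and 41.8% (del/fl), both del/del values being lower, with a mean difference of -8.92 points (SE 4.94; limma, adjusted p = 0.624). Body cover, at 10.6% and 12.3% against 12.5% and 10%, overlapped. With a −log10 q of at least 5 the second del/del library had no Bmp3 peak, and end cover was 25% and 0% against 33.4% and 41.8%. Neither gene passed the test, and leaving out 1 library moved the Bmp3 difference at the ends between -13.1 (without del/fl 1) and -4.73 points (without del/fl 2). The Bmp3 peak also lay over Gm34563.

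Among the antagonists, Grem1 (chr2:113748675-113758648), whose product Gremlin binds Bmp2, Bmp4 and Bmp7, was marked at its 5′ end, the upper coordinate. Its main peak measured 4.87 kb and 6.38 kb (del/del) against 6.79 kb and 7.1 kb (del/fl). End cover stayed within a narrow range, 46.7% and 46.6% against 47.4% and 50%. Both del/del values were lower, with a mean difference of -2.04 points (SE 1.52; limma, adjusted p = 0.624), and the difference was 1.96 points, with the opposite sign, once cover was scaled to the autosomal cover of each library. Body cover was 33.6% and 42.3% (del/del) against 45.7% and 42.5% (del/fl), a difference of -6.11 points that did not pass the test (limma, adjusted p = 0.657) and ran from -10.5 (without del/del 2) to -1.77 points (without del/del 1).

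Nog (chr11:89300638-89302559), which encodes Noggin, had the lowest pileup of the genes marked in all 4 libraries. Its main peak, over the lower-coordinate end, measured 2.29 kb and 2.39 kb (del/del) against 1.83 kb and 2.25 kb (del/fl), and its −log10 q-value, as deposited, was 3.58, 1.95, 3.07 and 3.4 in the same order. No Nog peak was left once a −log10 q of 5 was required. The gene is only 1.92 kb long, so its end windows merge and hold the whole body with its flanks. The 2 windows are thus nested and not separate measurements, and they gave opposite signs. At the ends cover was 33.1% and 41.4% (del/del) against 26.5% and 32.5% (del/fl), a difference of 7.79 points (SE 4.58; limma, adjusted p = 0.624). Over the body it was 41.3% and 47.4% against 48.4% and 60.8%, a difference of -10.2 points (SE 6.18; limma, adjusted p = 0.657). Within 1 kb of the ends the sign turned, to -3.75 points. Leaving out 1 library gave 3.63 (without del/del 2) to 12 points (without del/del 1) at the ends and -16.4 (without del/fl 1) to -4.03 points (without del/fl 2) over the body. In the second del/del library 2 small peaks of 293 bp and 333 bp near the gene added to the end value.

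Chrd (chr16:20731425-20742384), which encodes Chordin, had no peak within 2.5 kb of the ends of its gene record. A peak of 424 bp in the second del/del library and of 662 bp in the second del/fl library lay inside the gene and also overlapped Thpo, the thrombopoietin gene. It began 2686 bp and 2701 bp from the lower-coordinate end, just outside the window. The start in the promoter table lies 1702 bp inside this record, and the peak began within 2.5 kb of that start. Body cover was 0% and 3.87% (del/del) against 0% and 6.04% (del/fl) (limma, adjusted p = 0.929). The peak was present in the libraries with the longest lists of each genotype, 39982 and 45566 peaks against 32971 and 36934. With every list cut to its 32937 peaks of smallest q-value, the Chrd values were the same, 0% and 3.87% against 0% and 6.04%.

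Bmp5 (chr9:75775365-75900316) and Bmp7 (chr2:172868012-172940321), close relatives of Bmp6 with known roles in skeletal and kidney development, were bare in both windows in every library. The nearest peak lay 542 kb and 421 kb from Bmp5 in del/del and 420 kb and 351 kb in del/fl. For Bmp7 it lay 43.4 kb and 42.5 kb away in del/del and 44.2 kb and 75 kb in del/fl. The Bmp5, Bmp6 and Bmp7 subgroup was thus split, with a peak of high pileup at Bmp6 and none at Bmp5 or Bmp7.

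Within each list, the deposited pileup of stacked tags ranked the genes in nearly the same order. The broad lists give no summit, so a pileup here stands for a whole peak and not for its highest point. These per-peak values are the authors' own and describe order within a list only. Bmp6 came first in every library, with a highest pileup of 20.6 and 18.2 (del/del) against 22.6 and 21.9 (del/fl). Bmp4 followed at 16.9, 16.7, 19.4 and 19.1 in the same order, and Gdf6 at 16.3, 15.6, 17.3 and 17.3. Length ranked them otherwise, since the Bmp6 peak was short with a high pileup while the domains of Bmp4 and Gdf6 were long with a somewhat lower one. A value for a whole peak does not compare like with like between short and long peaks. Grem1 was next, with 14.9, 13.6, 16.3 and 16.4. Bmp2 had 13.4, 12.5, 13.7 and 14.1, Bmp3 had 14, 9.42, 11.9 and 11.1, and the pair changed places in the first del/del library. Nog came last of the 7, with 8.79, 6.33, 8.29 and 8.34, against an autosomal median of 7.17, 5.93, 7.13 and 5.92. By pileup the Bmp6 peak stood at percentile 98, 98.5, 98.7 and 99.1 of the autosomal peaks of each list. By length the main Gdf6 peak stood at percentile 99.1, 99.3, 98.9 and 99.2.

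**Figure D4:**
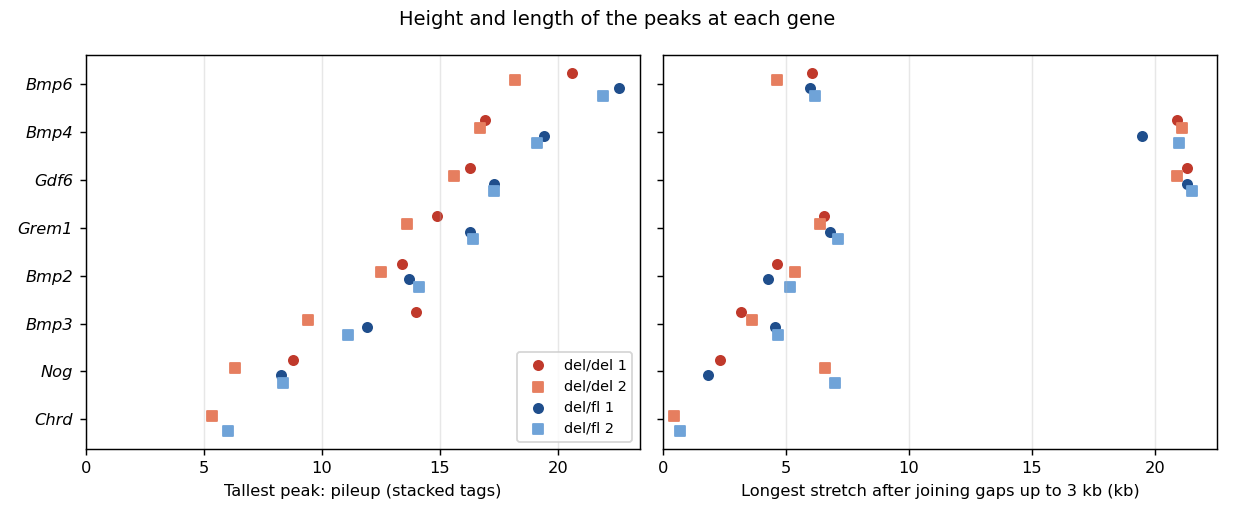
Highest deposited pileup of a peak at each gene, in stacked tags (left), and longest stretch in kb after gaps of up to 3 kb were joined (right), 1 point per library. A pileup stands for a whole peak and not for its highest point. Bmp6 is highest in every library but short, and Bmp4 and Gdf6 stretch over 19.5 kb or more. The Nog stretch is longer in the second library of each genotype, where other peaks nearby are joined to it.

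The comparison of genotypes asked whether deletion of Smchd1 went with a difference in H3K27me3 at these genes. No member passed limma at an adjusted p of 0.05 in either window. At the ends 7 of the 10 genes could be tested, with adjusted p from 0.608 to 0.932, and 0 had an unadjusted p under 0.05. Over the body 8 could be tested, with adjusted p from 0.657 to 1, and again 0 had an unadjusted p under 0.05. The background was as low: limma called 0% of 9132 genes at the ends, where 899 had an unadjusted p under 0.05, and 0% of 9332 over the body, where 906 had one. Single libraries moved that background. Without del/del 1, del/fl 1 or del/fl 2, limma called 1117, 1558 and 297 genes at the ends and 1142, 1332 and 203 over the body. The group left with 1 library is assumed there to vary like the other. No member was among them at the ends, and over the body Gdf6 passed without del/fl 1 (4.81 points) or without del/fl 2 (0.69 points). In those fits del/fl had 1 library and both del/del values were 100%, so no spread was measured for this gene and nothing is read from the calls.

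By order alone, both del/del values lay above both del/fl values at the ends of Bmp4, Gdf6 and Nog and below them at Bmp3 and Grem1. Among autosomal genes tested, 6.36% lay above and 15.5% below. Over the body Bmp4 and Gdf6 lay above, as did 6.74% of autosomal genes, and Nog and Grem1 below, as did 14.8%. The median difference over the genes that could be tested was -1.2 points at the ends and -0.741 points over the body, beside -0.965 and -0.2 points over the autosomal genes tested. With the bare genes counted as 0, the medians over all 10 were 0 and -0.196 points. No member gained a peak in both del/del libraries that both del/fl libraries lacked, which 1.72% of genes tested did, and none lost one, which 2.21% did. The design limits these statements: with 2 libraries a group, no exact permutation p can fall under 0.333.

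Of the other genes of the pathway, 50 in 6 lists, 21 had a peak at their ends in some library and 29 had none, and 25.3% of autosomal protein-coding genes had such a peak. The 21 include the X-linked Bmp15 and Chrdl1, whereas the 25.3% covers autosomal genes only. None passed the test (limma, smallest adjusted p = 0.267), and 2 of the 21 had an unadjusted p under 0.05. Over all genes tested at the ends, 899 of 9132 had one. The mean was higher in del/del for 7 and lower for 9, with a median difference of 0 points over the 21. Of the 10 other ligands 5 had a peak. Bmp15, an oocyte ligand and the only X-linked one, had 53.4% and 50.6% (del/del) against 2.5% and 12.2% (del/fl), a difference of 44.7 points (SE 4.49; limma, adjusted p = 0.267). This did not pass the test, although no other pathway gene differed as much. It passed with 5-kb windows (35.5 points, limma, adjusted p = 0.048) and with scaled cover (49 points, limma, adjusted p = 1.38e-06). In none of the other alternatives run did it pass. Over all genes those fits called 92 and 222, against 0 in the main fit. Scaling used autosomal cover, although Bmp15 is X-linked, and changed the difference little. The far smaller p-value is thus not read as stronger evidence. Gdf7, picked out after its values were seen, was 100% covered in all 4 libraries.

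Of 14 other antagonists 7 had a peak. Sost, which encodes sclerostin, had 0% and 0% (del/del) against 5.63% and 5.4% (del/fl) (limma, adjusted p = 0.275). Of the 21 pathway genes tested only Sost had a peak in both del/fl libraries and neither del/del library. Of all 9132 genes tested 2.21% did. Fst, which encodes follistatin, had a mean of 12.3% ± 3.12 (SD, n = 2) in del/del compared with 19.1% ± 0.679 (SD, n = 2) in del/fl, and the X-linked Chrdl1, a chordin relative, had 88.8% and 89.2% against 81.9% and 86.6%. Neither passed the test. Of 7 receptors only Acvrl1, an endothelial type I receptor, had a peak, with 37.6% and 55.5% (del/del) against 43.9% and 51.4% (del/fl). Of 6 Smads only Smad6, an inhibitory Smad, had one, with 20.9% and 24.6% against 19.7% and 24.6%.

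Of 10 target genes 6 had a peak, and they fell into unlike classes. The homeobox genes Msx1, Msx2, Dlx5 and Dlx6 were 100% covered in every library, and Id1, Id2, Id3 and Hey1 had no peak. Both groups of 4 were picked out after their values were seen. Id4, an inhibitor of helix-loop-helix factors, had 18.9% and 12.3% (del/del) against 32.2% and 59% (del/fl), a difference of -30 points (limma, adjusted p = 0.624), and Bambi, a decoy receptor, had 11.2% and 23.3% against 23.6% and 27.6%. Of 3 proteases of the tolloid family, which includes Chordin-cleaving enzymes, only Tll1 had a peak.

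**Figure D5:**
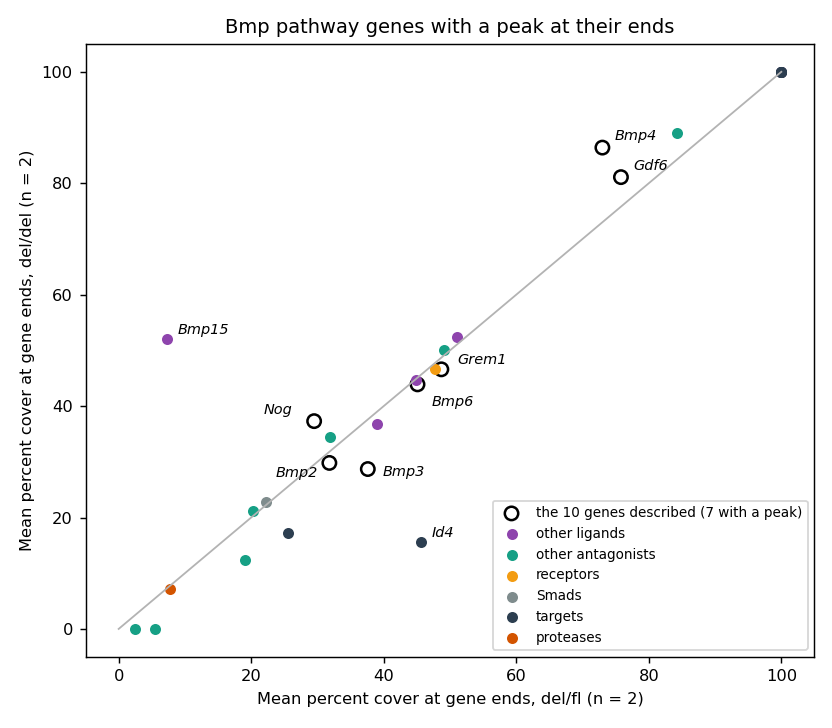
Mean percent of bases within 2.5 kb of both gene ends covered by peaks in del/del (y axis) and del/fl (x axis), n = 2 libraries each, for the pathway genes with a peak, with equality as a line. Of the 7 genes described Bmp4 lies furthest from the line, at 86.4% in del/del against 73% in del/fl. The X-linked Bmp15 lies far above the line at 52% against 7.33%, and Id4 lies below it.

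The protein-coding genes most like Bmp4 over the 4 libraries, by Euclidean distance of end cover, were Gucy2f (7.7 points) and Gm4779 (10.5 points) on X and Hes3 (11.4 points) on chromosome 4. Those most like Bmp3 were Fam155a (3.6 points), Ccdc3 (4.02 points) and Slc26a10 (5 points). The measure rests on 4 libraries and describes similar cover only.

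Peak calling used 11793402 to 14064030 tags per library. Autosomal cover was 32.9 Mb and 44.1 Mb (del/del) against 35.8 Mb and 47.5 Mb (del/fl), so the second library of each genotype had the wider list. Smchd1 itself had no peak within 2.5 kb of its ends in any library, so the lists hold no check of its deletion. Of 10 neural stem cell markers only Pax6 had a peak at its ends. A peak in some library was present at 4 of 6 neuron markers, 1 of 4 astrocyte markers, 2 of 4 oligodendrocyte markers, 1 of 3 endothelial markers, 1 of 3 microglia and blood markers, and 3 of 4 fibroblast and mesenchymal markers, beside 25.3% of autosomal protein-coding genes.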

How the data were processed

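H3K27me3 was profiled by ChIP-seq in 2 del/del and 2 del/fl libraries, each with its own whole-cell extract. The submitters' processing notes name bcl2fastq, Bowtie 0.12.9 and the build mm10. Per the file headers, MACS2 2.1.0.20140616 listed broad peaks separately for every library, with a q-value threshold of 0.05. It kept 1 tag per position, with down-sampling, and used local background over 1000 and 10000 bp. Some listed peaks had a q-value looser than 0.05. At these genes the −log10 q went down to 1.02, at Bmp6 in the second del/fl library. The Chrd peak of the second del/del library had 1.26, which is also looser. Deposited with each peak are its pileup, a signal that counts stacked tags, and its fold enrichment, a ratio to local background, and p-values and q-values are deposited as −log10. Peak lists give no read counts per gene, so depth behind a percent of cover is known only as tags per library.

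Percent cover was computed with Python 3.11.15, numpy 2.4.6 and pandas 2.3.3, using RefSeq coordinates (GRCm38.p6), and figures with matplotlib 3.10.9. The table gives no strand, so both ends were used. Cover was compared by limma 3.58.1 in R 4.3.3 (variance trend, robust) over all genes with a peak in any library in the window, with Benjamini-Hochberg adjustment. Peak lengths were compared by exact permutation (scipy 1.17.1). The interval code and fits were tested on simulated data. Members and lists were chosen with earlier results of these data known. All members were named; of each pathway list, up to 4 genes with the largest differences and any gained or lost gene; and, for the 2 members with the largest difference, the 3 most similar genes. Alternatives were other windows, merging, thresholds, scales, filters, equal list lengths, left-out libraries and a replicate block. Per the labels' protocols each line was divided into a transduced and an untransduced portion, so libraries of both genotypes may share a line, but which do is not stated.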

Additional observations from a re-analysis of the deposited data

How the results depend on the processing

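At gene ends the signs for Bmp3 and Bmp4 held under every alternative run, but joining gaps of up to 3 kb took Bmp4 from 13.4 to 1.89 points. With 1-kb windows 1 member, Gdf6, was called, and 21 genes in all. The uncovered del/fl bases of Gdf6 there were short gaps at opposite ends of the gene. Over all genes at the ends limma called 92 with 5-kb windows, 32 after joining gaps of up to 3 kb, 111 with −log10 q of at least 5, 222 with cover scaled to autosomal cover, and 0 to 1558 when each library was left out. Over the body it called 9 without trend or robust fitting, 5 with lists of equal length, 8 on a log2 scale, 42 with a mean cover of at least 5%, 47 after joining, 95 with stricter peaks and 0 to 1332 with libraries left out, when 0 to 1 members were called. Of the pathway genes 1 (Bmp15) was called with 5-kb windows and 1 with scaled cover, and 0 to 1 with libraries left out; the calls of Gdf6 and Sost there rest on 1 del/fl library against equal del/del values, with no spread measured for the gene.

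At the ends the sign turned for Nog with 1-kb (-3.75 points) and 5-kb windows (-3.09), for Gdf6 after joining (-3.19), and for Bmp2 (1.91), Bmp6 (2.22) and Grem1 (1.96) with scaled cover. Over the body it turned for Bmp3 (-2.42) and Nog (7.79) with 2.5-kb flanks. For the short Nog gene that window is the same as the one of the ends. The body sign also turned for Bmp3 with equal lists (-1.11) and stricter peaks (-5.96). It turned for Bmp2 (3.73) and Nog (16.1) after joining, and for Bmp2 with scaled cover (1.24). With 10-kb flanks, chosen after seeing the data, it turned for Bmp3 (-1.69) and Chrd (1.34). With each library left out, Bmp2 ran from -8.39 to 4.42 and Bmp6 from -3.71 to 1.3 at the ends; over the body Bmp2 ran from -4.87 to 2.2, Bmp3 from -1.05 to 1.4, Bmp6 from -0.79 to 0.00614 and Chrd from -4.11 to 1.93. The cause was not tested.

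A replicate block left 0 members called in either window (limma, smallest adjusted p at the ends 0.482, for Bmp3; unadjusted p 0.0225 for Bmp3 and 0.0418 for Nog). Deviations of same-numbered libraries correlated at 0.111 over 8065 autosomal genes, with 2 pairs only and no pairing stated in the labels. In list width same-numbered libraries were nonetheless alike, with 17102 and 26327 autosomal peaks (del/del) against 17564 and 26637 (del/fl). A correlation over genes does not show such a shared shift. Fits without a filter on genes lacking peaks could not be fitted. Lists of peaks show no level below the calling threshold, so a bare gene is one without a called peak at this depth.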
